A study of Oryctolagus cuniculus with 17 samples.

Results

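The genes described here encode enzymes of fatty acid oxidation and proteins that take up, store and release lipid. They were taken from the raw count table of lungs of preterm rabbits as the entries whose human gene name is on a list of 32 names, with the entry of highest total kept where a name had several. Of the 32 names, 27 had an entry, out of 13827 entries in the table, and all 27 passed the filter on low counts. They comprise 16 genes of mitochondrial oxidation, the peroxisomal thiolase ACAA1, 6 genes of lipid uptake and storage, the lipase gene LIPE and the regulators PPARA, PPARG and PPARGC1A. ACADL, FABP4, PLIN3, PNPLA2 and MGLL were not analysed here.

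The samples were homogenates of the right lung of New Zealand White pups delivered by caesarean section on day 28 of gestation and fed a milk replacer, conditions that every group shares. Hyperoxia groups (HT) breathed 95% O2 and normoxia groups (NT) 21% O2 until postnatal day 3, 5 or 7, and the groups are called HT3, HT5, HT7, NT3, NT5 and NT7. Polyadenylated RNA was sequenced from 17 samples. HT5 had 2 of them and each other group 3. The labels do not say whether samples of a group came from separate litters, so p-values measure the spread between these samples.

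Fatty acids enter mitochondria as carnitine esters and are then shortened by acyl-CoA dehydrogenases, hydratases, hydroxyacyl-CoA dehydrogenases and thiolases, with electrons passed through the electron transfer flavoprotein to the respiratory chain. Lipid reaches cells as fatty acids released from lipoproteins by lipoprotein lipase or through the transporter CD36, is activated by acyl-CoA synthetases and can be kept in droplets coated by perilipins. In lung, alveolar type 2 cells use fatty acids for surfactant lipids, lipofibroblasts and macrophages hold droplets, and capillary endothelium carries CD36 and lipoprotein lipase on its surface.

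Totals per locus ranged from 13103244 to 18081464 counts, and the alveolar type 2 marker SFTPC lay between 4050 and 12367 CPM (counts scaled to library size) in all 17 libraries. HT3 replicate 2 and HT5 replicate 1 stood apart by muscle transcripts, with 135 and 138 CPM of skeletal actin ACTA1, against 16.9 in HT3 replicate 3 and at most 6.95 in the other libraries. Heart muscle markers summed to 58.1 and 40.6 CPM in these libraries and to 44.4 CPM in NT3 replicate 2, against at most 8.90 in the others. The part of muscle transcripts in the members' levels was not tested. No member was called on day 3 with all samples, nor without HT3 replicate 2 or without NT3 replicate 2, so these counts cannot show it. NT5 replicate 1 held more of macrophage genes, such as 84.0 CPM of C1QC against 11.9 and 9.86 in the other NT5 libraries. In these bulk samples, fewer cells of a type and less RNA per cell cannot be told apart. The reads of 3 members belong to loci that the table also lists under other genes with identical counts, namely ACADM with RABGGTB and 2 small nucleolar RNA genes, HADH with SGMS2, and LIPE with CXCL17, so these members cannot be separated from those neighbours. Counts of CPT1A, HADHB and DECR1 are also split with a further entry each, which took 6256, 1429 and 100 counts over all samples against 27623, 24422 and 5557 in the entries kept.

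The contrast between oxidation and lipid handling was read first. A gene is called changed at an adjusted p below 0.01 in edgeR's quasi-likelihood test with Benjamini-Hochberg adjustment over all 13099 entries tested. On day 7, 5 of 16 mitochondrial oxidation genes were higher and 1 lower in HT7, with a median log2FC of 0.13 over the 16. These are 31.2% and 6.25%, against 16.7% higher and 16.9% lower among all entries tested. Of the 6 uptake and storage genes, 3 were higher and 1 lower (50.0% and 16.7%), with a median log2FC of 1.18 and a range of -2.01 to 2.11. The median over all entries tested was -0.01. Without ACADM and HADH, whose loci are shared, 4 of 14 oxidation genes were higher and 1 lower (28.6% and 7.14%). These counts depend on single libraries. Without HT7 replicate 1, HT7 replicate 2 or any 1 of the NT7 replicates, 3 of 16 oxidation genes were higher (18.8%), and without HT7 replicate 3 there were 4. Of the uptake and storage genes, 1 was higher without NT7 replicate 2 or NT7 replicate 3 (16.7%), and 2 without HT7 replicate 1.

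By sample, each gene's log2 CPM was set against its mean over the 9 NT samples and the median was taken over the genes of a role. For mitochondrial oxidation the HT7 medians were 0.23, 0.26 and 0.06, and the NT7 medians were 0.12, -0.01 and -0.03. These overlapped, since HT7 replicate 3 lay below NT7 replicate 1. For uptake and storage the HT7 medians were 1.95, 1.33 and 1.08, all above the NT7 medians of 0.60, 0.12 and -0.05. The corresponding HT3 values were 0.45, 0.28 and 0.53 against -0.01, -0.20 and 0.00 in NT3, and those of HT5 were 0.66 and 0.59 against 0.20, -0.46 and 0.08 in NT5. The uptake and storage medians of hyperoxia samples thus lay above those of the NT samples on each day, while those of oxidation overlapped on each day. These medians are descriptions of few genes that move in both directions and were not tested.

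**Figure D1:**
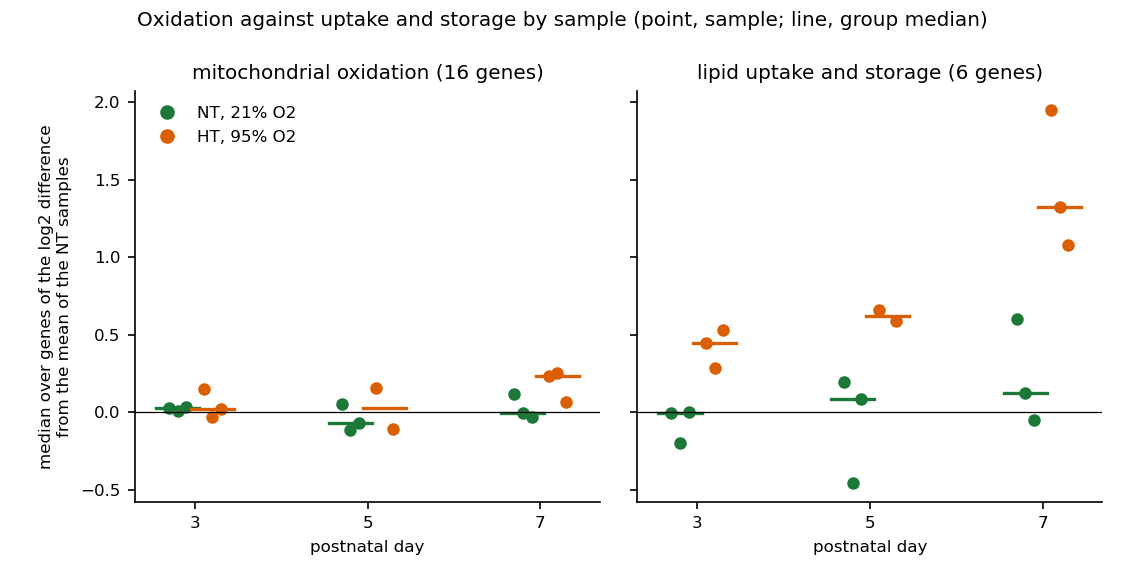
Each point is 1 sample, plotted by postnatal day (x axis) against the median over genes of the log2 difference from the mean of the 9 NT samples (y axis), for 16 oxidation genes (left) and 6 uptake and storage genes (right), with lines at group medians. The HT7 points of uptake and storage lie between 1.08 and 1.95, above every NT7 point, whereas the oxidation points of HT7 and NT7 overlap.

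On day 3, none of the 27 members changed between HT3 and NT3 by edgeR, and ACADVL and ACSL1, 2 in all, had an unadjusted p below 0.05, against 0.206% changed and 15.3% at the unadjusted threshold among all entries tested. DESeq2 called 1 member, ACSL1. Samples of HT3 and NT3 did not overlap in 6 members, 5 above and 1 below, which is 22.2% against 26.7% of all entries. ACSL1 encodes a synthetase that activates long-chain fatty acids. Its levels were 59.9, 53.6 and 71.3 CPM in HT3 and 29.1, 24.9 and 36.5 CPM in NT3. All HT3 samples were above all NT3 samples, with a log2FC of 1.03 ± 0.22 (SE, 95% CI 0.57 to 1.49), and the adjusted p was 0.0374 by edgeR and 7.00e-04 by DESeq2.

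The very long-chain acyl-CoA dehydrogenase ACADVL was measured at 137, 145 and 151 CPM in HT3 and 116, 105 and 110.3 CPM in NT3, a difference without overlap that did not pass the test (log2FC 0.39 ± 0.12 (SE), adjusted p = 0.130). Among the other oxidation genes, log2FC on day 3 ranged from -0.36 for CPT1A to 0.30 for ACADM. CD36, the fatty acid transporter, was at 798, 724 and 371 CPM in HT3 and 474, 418 and 454 CPM in NT3. The HT3 samples spread on both sides of NT3, and the log2FC of 0.49 had a 95% CI of -0.21 to 1.20.

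On day 5, 5 of the 27 members changed, 3 higher and 2 lower in HT5, or 11.1% and 7.41% against 8.52% and 7.63% of all entries tested. HT5 and NT5 samples did not overlap in 14 members (51.9%), close to the 55.7% of all entries. The counts of members are therefore near the background, and the changes are given gene by gene. ACADVL and ACADM encode dehydrogenases of the first step, and ETFDH the enzyme that takes on their electrons further down. ACADVL was at 162 and 183 CPM in HT5 and 115, 93.8 and 104 CPM in NT5 (log2FC 0.73 ± 0.13 (SE), adjusted p = 0.00112). The medium-chain dehydrogenase ACADM was at 116 and 189.9 CPM in HT5 and 77.5, 74.0 and 76.9 CPM in NT5 (log2FC 1.01 ± 0.15 (SE), adjusted p = 4.55e-04). ETFDH, the oxidoreductase that hands electrons from the electron transfer flavoprotein to ubiquinone, was at 65.7 and 73.7 CPM in HT5 and 45.7, 45.9 and 41.3 CPM in NT5 (log2FC 0.65 ± 0.14 (SE), adjusted p = 0.00280). None of the 3 overlapped between HT5 and NT5, although the HT5 samples of ACADM were far apart.

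ECI2, an isomerase that prepares unsaturated fatty acids for oxidation, fell from 65.2, 66.2 and 68.6 CPM in NT5 to 43.9 and 33.4 CPM in HT5 (log2FC -0.79 ± 0.18 (SE), adjusted p = 0.00549). CD36 was at 114 and 113 CPM in HT5 and 218, 307 and 517 CPM in NT5, so both HT5 samples were lower while the NT5 samples were far apart. It was 3.07-fold lower in HT5 (log2FC -1.62 ± 0.39 (SE), adjusted p = 0.00683). PLIN2, the perilipin that coats droplets in most cell types, was at 106 and 136 CPM in HT5 and 85.6, 42.0 and 52.8 CPM in NT5, with the adjusted p of 0.0124 just above the threshold (log2FC 1.01 ± 0.27). Its highest NT5 level was in replicate 1, the library rich in macrophage genes. Without that library PLIN2 passed (log2FC 1.35, adjusted p = 0.00202) and ECI2 did not, so the count of changed members stayed at 5. CD36 still passed there (log2FC -1.86, adjusted p = 0.00347). Neither CD36 nor ECI2 passed without NT5 replicate 2 or without NT5 replicate 3. The part of macrophages in the PLIN2 result was not tested. Without HT5 replicate 1, the library with muscle transcripts, the log2FC was 1.32 for ACADM and 0.73 for ETFDH. The fall of ECI2 was then larger. The day 5 calls rest on 2 HT5 samples. With the replicate number as a block the calls of ETFDH, ECI2 and CD36 were lost (adjusted p = 0.0385, 0.0205 and 0.0313). Without HT5 replicate 2 no member changed, with 3 without NT5 replicate 2 and 2 without NT5 replicate 3, and a fit to HT5 and NT5 alone called 0, where adjusted p of the 5 genes lay between 0.0230 and 0.0329.

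**Figure D2:**
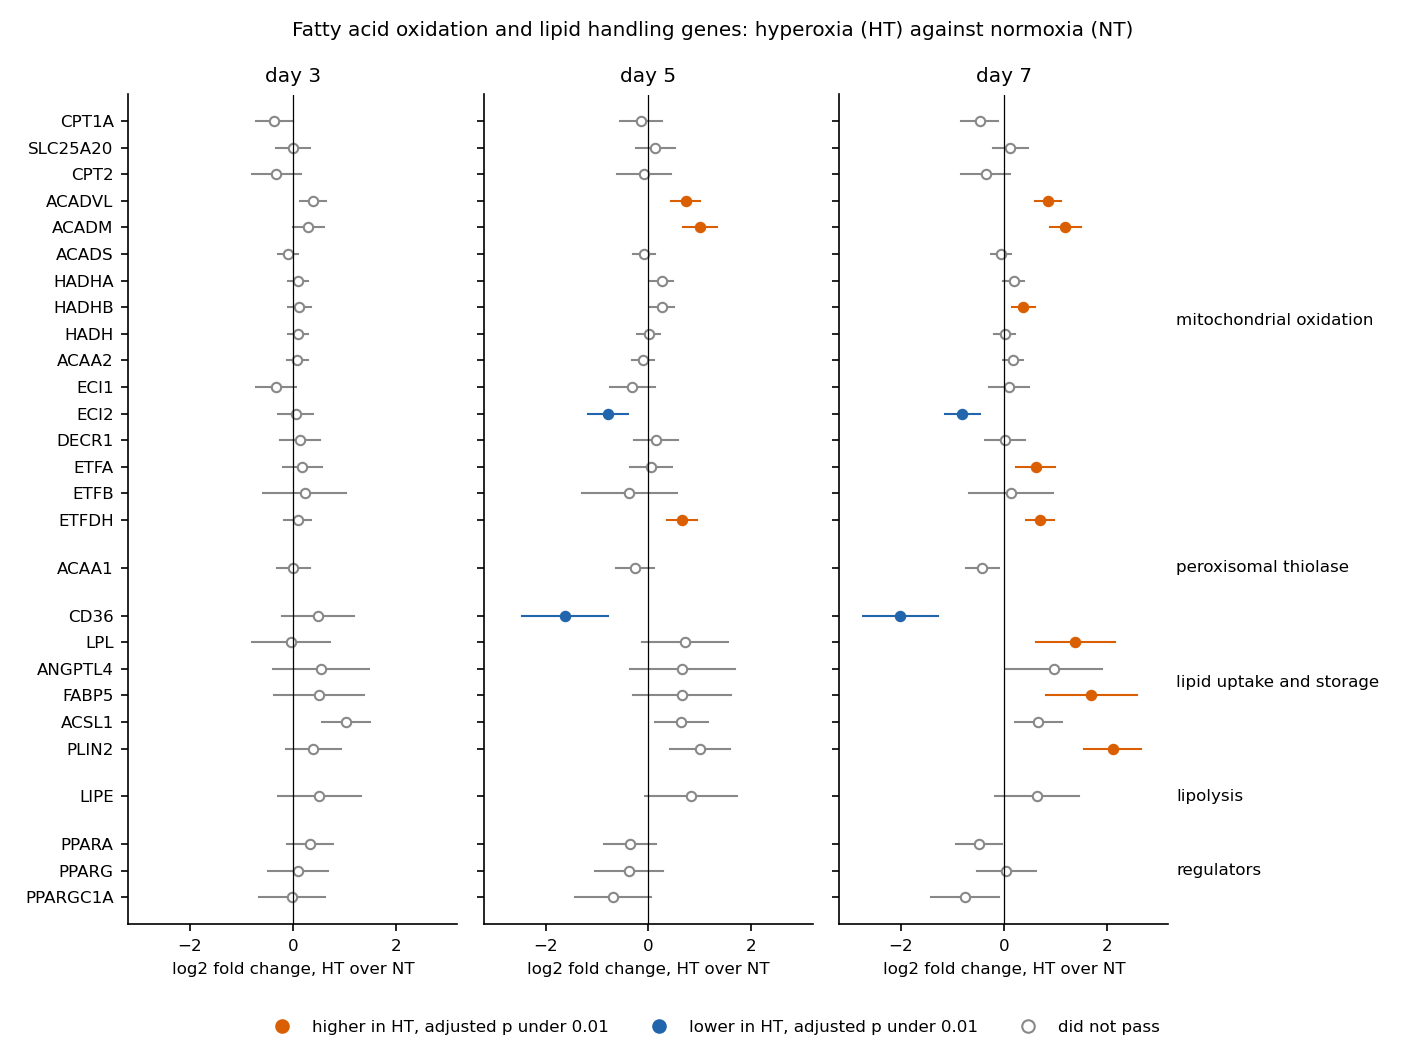
Log2 fold change of HT over NT (x axis) with its 95% confidence interval for each of the 27 members (y axis), grouped by role, on days 3, 5 and 7; filled orange and blue points passed an adjusted p of 0.01 and open grey points did not. On day 7 CD36 lies at -2.01 and PLIN2 at 2.11, while the carnitine shuttle genes CPT1A, SLC25A20 and CPT2 lie between -0.47 and 0.13.

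On day 7, 10 of the 27 members changed, 8 higher and 2 lower in HT7. These are 29.6% and 7.41% of the members, against 16.7% higher and 16.9% lower among all entries tested. Of the members, 2 also passed the study's minimum of 2 on the log2 scale, CD36 downwards and PLIN2 upwards, where 4.6% of all entries did. HT7 and NT7 samples did not overlap in 13 members (48.1%), fewer than the 54.5% of all entries. DESeq2 called 11 members, and a fit to HT7 and NT7 alone called 7, without HADHB, LPL and FABP5. Leaving out either NT7 replicate 2 or NT7 replicate 3 left 6 called, and ACADVL, ACADM, ETFDH, ECI2, CD36 and PLIN2 passed in each of the 6 fits without 1 sample.

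The 3 carnitine shuttle genes did not pass the test on day 7 in the fit without a replicate block. CPT1A, the rate-setting carnitine palmitoyltransferase of the outer membrane, was at 78.1, 91.0 and 78.6 CPM in HT7 and 123, 124 and 97.3 CPM in NT7, lower in all HT7 samples with an adjusted p of 0.0327 (log2FC -0.47, 95% CI -0.84 to -0.11). With the replicate number as a block its adjusted p was 0.00784, past the threshold. The further CPT1A entry had a log2FC of -0.17. The carnitine-acylcarnitine carrier SLC25A20 and the inner palmitoyltransferase CPT2 overlapped between HT7 and NT7, with 95% CIs of -0.21 to 0.47 and -0.83 to 0.12.

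At the first oxidation step, the genes for longer chains, ACADVL and ACADM, rose and the one for short chains did not pass the test. The counts of ACADM are those of a locus shared with RABGGTB and small nucleolar RNA genes, so its rise cannot be assigned to ACADM alone. ACADVL (chromosome 19, 11909414 to 11919992) was at 229, 192 and 189.7 CPM in HT7 and 129.6, 98.6 and 107 CPM in NT7. The groups did not overlap, and the level was 1.82-fold higher in HT7 (log2FC 0.86 ± 0.12 (SE), adjusted p = 5.06e-05). ACADM (chromosome 13, 89864172 to 89914004) was at 203, 163 and 185 CPM in HT7 and 81.1, 74.6 and 84.8 CPM in NT7. Here the lowest HT7 sample was well above the highest NT7 sample, with a 2.29-fold difference (log2FC 1.20 ± 0.14 (SE), adjusted p = 1.64e-05). ACADS, the short-chain dehydrogenase, was at 142, 119 and 133 CPM in HT7 and 134, 145 and 129 CPM in NT7, which overlapped. Its log2FC was -0.05 with a 95% CI of -0.25 to 0.14, whose upper bound lies below the log2FC of both longer-chain genes.

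The trifunctional protein carries the next 3 steps for long chains, and its subunit genes HADHA and HADHB lie head to head on chromosome 2 with 333 bases between them in the OryCun2.0 coordinates of the table. HADHB was at 108, 112 and 95.8 CPM in HT7 and 84.0, 84.0 and 74.7 CPM in NT7, higher without overlap (log2FC 0.38 ± 0.10 (SE), adjusted p = 0.00763). HADHA was at 209, 214 and 202 CPM in HT7 and 189, 177 and 181 CPM in NT7, also without overlap, but did not pass (log2FC 0.19 ± 0.09 (SE), adjusted p = 0.107). The HADHB call held in 1 of the 6 fits that left out 1 sample, and was lost with the replicate number as a block (adjusted p = 0.0162). HADH, the hydroxyacyl-CoA dehydrogenase for shorter chains, and ACAA2, the mitochondrial thiolase, overlapped between groups, with log2FC of 0.02 (95% CI -0.18 to 0.22) and 0.17 (95% CI -0.02 to 0.37).

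Genes for unsaturated fatty acids differed among themselves. ECI2 (scaffold GL018715, 1737294 to 1794346) was at 38.8, 48.3 and 42.8 CPM in HT7 and 77.5, 80.0 and 69.4 CPM in NT7, so every HT7 sample was lower. The fall was 1.75-fold (log2FC -0.80 ± 0.16 (SE), adjusted p = 9.13e-04). Its relative ECI1 and the dienoyl-CoA reductase DECR1 overlapped between groups, with log2FC of 0.10 (95% CI -0.29 to 0.48) and 0.02 (95% CI -0.36 to 0.41). ECI2 protein is found in peroxisomes as well as mitochondria. The peroxisomal thiolase ACAA1 was at 50.9, 56.1 and 40.1 CPM in HT7 and 68.4, 61.4 and 67.0 CPM in NT7, lower in each HT7 sample without passing the test (log2FC -0.42 ± 0.15 (SE), adjusted p = 0.0329).

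Electrons leave the dehydrogenases through the electron transfer flavoprotein, made of the ETFA and ETFB products, and its oxidoreductase ETFDH. ETFDH was at 61.0, 73.4 and 78.1 CPM in HT7 and 50.6, 41.8 and 38.2 CPM in NT7, 1.63-fold higher without overlap (log2FC 0.70 ± 0.12 (SE), adjusted p = 3.45e-04). ETFA was at 99.2, 94.7 and 101 CPM in HT7 and 70.4, 56.6 and 65.4 CPM in NT7, higher without overlap (log2FC 0.62 ± 0.17 (SE), adjusted p = 0.00916). The ETFA call was lost with 1 entry per locus (adjusted p = 0.0104) and in all 6 fits that left out 1 sample, where its adjusted p ranged from 0.0126 to 0.0449. ETFB was at 40.1, 80.5 and 57.0 CPM in HT7 and 73.5, 43.1 and 44.4 CPM in NT7. The groups overlapped widely, and the 95% CI of -0.68 to 0.96 spans the log2FC of ETFA.

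**Figure D3:**
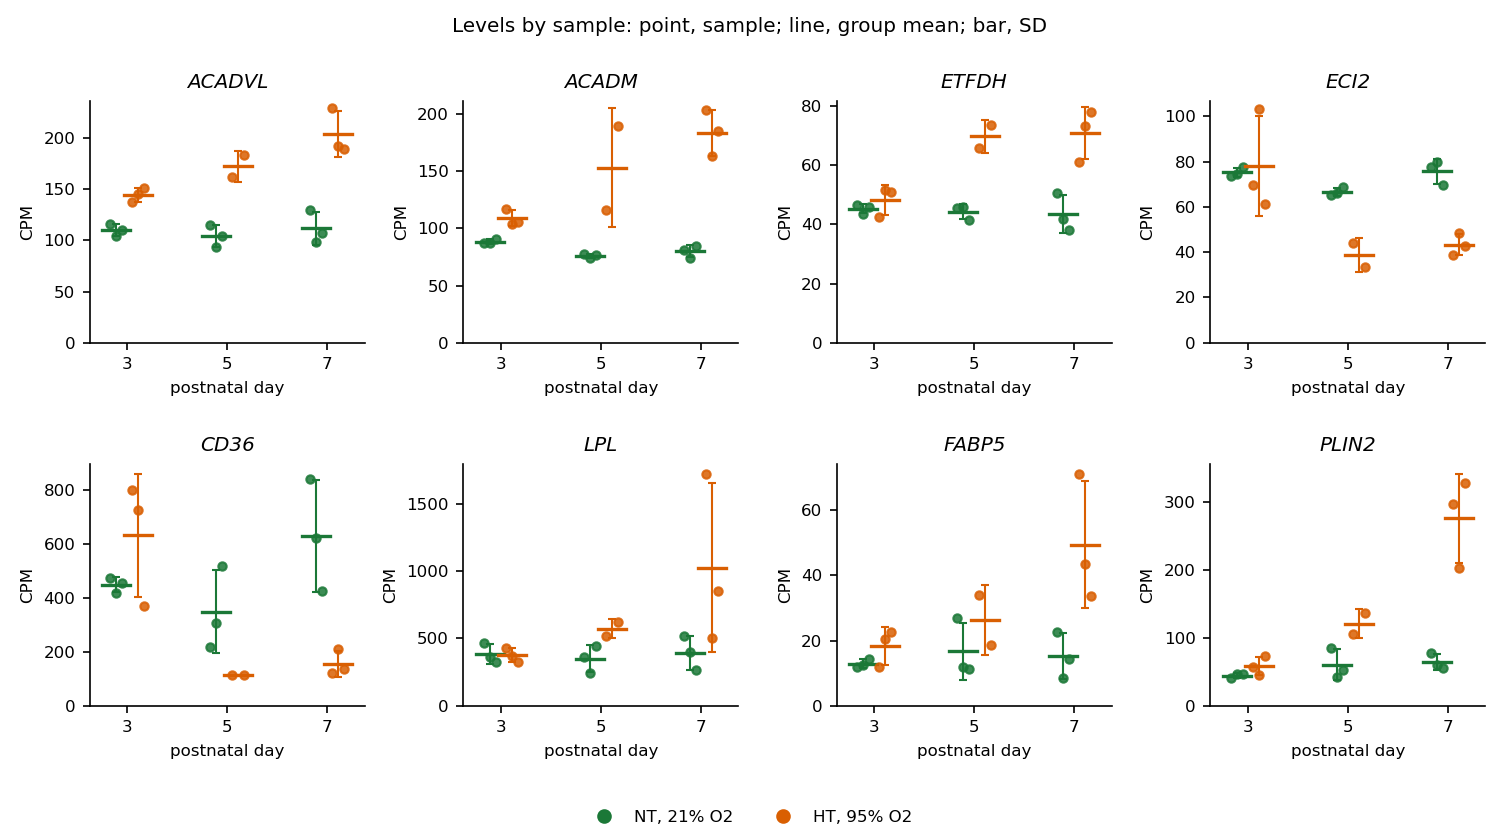
CPM (y axis, linear from 0) of 8 members in each sample by postnatal day (x axis), with NT in green and HT in orange, lines at group means and bars of 1 SD over 3 samples (2 in HT5). ACADVL, ACADM, ETFDH and PLIN2 of HT7 lie above every NT7 sample, CD36 and ECI2 below, and LPL of HT7 spreads from 501 to 1723 CPM.

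The 4 uptake and storage genes that changed on day 7 had log2FC of -2.01, 1.39, 1.70 and 2.11, while the highest log2FC of an oxidation gene was 1.20. CD36 (chromosome 7, 35303108 to 35342248) was at 122, 211 and 135 CPM in HT7 and 840.3, 623 and 427 CPM in NT7. The highest HT7 sample lay at about the level of the lowest NT5 sample and well below NT7, and the fall was 4.04-fold (log2FC -2.01 ± 0.34 (SE), adjusted p = 2.64e-04). CD36 is made by capillary endothelium, macrophages and adipocytes. Of 10 endothelial marker genes detected, 8 were lower and 0 higher in HT7, with their summed level at 1164 to 1522 CPM in HT7 and 2817 to 3682 CPM in NT7. On day 5, 5 of these 10 were lower and 1 higher, with sums of 1642 to 1856 CPM in HT5 and 3058 to 3646 CPM in NT5. On day 3, 1 of the 10 was lower. In every HT3 sample 7 were below NT3 and 1, VWF, was above it (199, 313 and 300 CPM against 137, 116 and 126 CPM). That is 80% not overlapping, against 26.7% of all entries. Sums were 2897 to 3534 CPM in HT3 and 3715 to 4189 CPM in NT3. The median log2FC of the 10 was -0.60, while the log2FC of CD36 was 0.49. Among the 10 markers the junction gene CDH5 was at 141, 109 and 134 CPM in HT7 and 433, 536 and 520.4 CPM in NT7. Of 6 markers of alveolar type 1 cells, which lie beside the capillaries, 4 were lower on day 7, with sums of 1993 to 2645 CPM in HT7 and 6781 to 7633 CPM in NT7. None of the markers of either list was at 0 in any sample. The part of these cell types in the CD36 result was not tested.

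PLIN2 (chromosome 1, 34734595 to 34759320) was at 298, 203 and 329 CPM in HT7 and 77.4, 59.5 and 55.0 CPM in NT7. It rose 4.32-fold (log2FC 2.11 ± 0.26 (SE), adjusted p = 1.99e-05) and had the highest log2FC of the 27 members, with values between 1.98 and 2.30 when 1 sample was left out. FABP5, a cytosolic fatty acid binding protein, was at 71.2, 43.6 and 33.6 CPM in HT7 and 22.8, 8.60 and 14.4 CPM in NT7. All HT7 samples were higher (log2FC 1.70 ± 0.41 (SE), adjusted p = 0.00368), and the call held in 3 of 6 fits without 1 sample. Lipoprotein lipase LPL (chromosome 15, 4554032 to 4653868) was at 1723, 501 and 851 CPM in HT7 and 515, 396 and 262 CPM in NT7. The groups overlapped, as HT7 replicate 2 was below NT7 replicate 1, and LPL passed the test (log2FC 1.39 ± 0.36 (SE), adjusted p = 0.00558). Without HT7 replicate 1 its log2FC was 0.79 with an adjusted p of 0.0474. That library also had the highest sum of neutrophil markers, 2762 CPM against 865 and 1183 in the other HT7 samples. Most of it came from S100A8 and S100A9 (1022 and 1513 CPM). CSF3R was higher in HT7 replicate 3 (192 against 169 CPM), while CXCR2 (49.3 against 56.8 CPM) and MPO were lower there. The part of neutrophils in the LPL result was not tested.

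ANGPTL4, an inhibitor of lipoprotein lipase, was at 95.1, 78.4 and 57.2 CPM in HT7 and 64.3, 30.3 and 22.6 CPM in NT7, overlapping in 1 sample of each group (log2FC 0.98 ± 0.44 (SE), adjusted p = 0.0792). ACSL1 was at 42.9, 75.3 and 57.7 CPM in HT7 and 44.5, 35.6 and 30.5 CPM in NT7 and did not pass by edgeR (log2FC 0.67 ± 0.22 (SE), adjusted p = 0.0192). It was the member that DESeq2 called in addition on day 7 (adjusted p = 0.00821). The log2FC of ACSL1 was 1.03 on day 3 and 0.64 on day 5, and the difference between its effects on days 7 and 3 was -0.36 with a 95% CI of -1.01 to 0.29.

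Droplets and lipid uptake are also features of macrophages, so their markers are given beside PLIN2, FABP5 and LPL. Of 10 macrophage markers, 1 was higher and 2 lower in HT7, and their sum was 1951 to 2497 CPM in HT7 and 1204 to 1430 CPM in NT7. CD68, whose locus the table shares with other genes, took most of this sum with 2007, 1183 and 1621 CPM in HT7 and 771, 601 and 700.4 CPM in NT7. The other 9 markers summed to 489.6, 768 and 413 CPM in HT7 and 659, 603 and 541 CPM in NT7, which overlapped. The scavenger receptor MSR1 was at 107, 164 and 115 CPM in HT7 and 45.1, 37.4 and 35.2 CPM in NT7, and the alveolar macrophage receptor MARCO at 11.1, 21.9 and 7.51 and 91.9, 25.4 and 67.3 CPM. Markers of alveolar type 2 cells summed to 13804 to 30108 CPM in HT7 and 17647 to 23689 CPM in NT7. Those of fibroblasts summed to 3929 to 4313 and 5609 to 7025 CPM, and of these 8 markers 1 was higher and 3 lower. NPNT, which weighs heavily in the fibroblast sum, was at 77.8, 240 and 96.8 CPM in HT7 and 1618, 1680 and 1447 CPM in NT7. LUM went the other way, with 124, 118 and 164 CPM in HT7 and 56.2, 66.4 and 48.2 CPM in NT7. The adipocyte genes UCP1 and CIDEA were at most 0.276 CPM in any sample, and the 5 adipocyte markers listed summed to at most 5.39 CPM. The part of macrophages, type 2 cells and fibroblasts in the rise of PLIN2, FABP5 and LPL was not tested.

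LIPE encodes hormone-sensitive lipase, which releases fatty acids from stored lipid, and its counts are those of a locus shared with the chemokine CXCL17. The locus was at 158, 342 and 172 CPM in HT7 and 145, 143 and 142 CPM in NT7, higher in each HT7 sample without passing the test (log2FC 0.65 ± 0.38 (SE), adjusted p = 0.178). It did not pass on day 3 or day 5 either. Its highest level, 354 CPM, was in HT5 replicate 1, which held muscle transcripts and the highest sum of type 2 markers (33652 CPM). HT7 replicate 2, at 342 CPM, had 30108 CPM of type 2 markers and 3.04 CPM of skeletal muscle markers. The HT3 samples had 25188 to 28464 CPM of type 2 markers and 130 to 178 CPM of the locus. The part of either cell type was not tested.

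None of the 3 regulators changed between HT and NT on any day in the fit to all samples. The nuclear receptor PPARA, which drives oxidation genes, was at 31.9, 36.4 and 28.6 CPM in HT7 and 45.4, 54.7 and 34.8 CPM in NT7 (log2FC -0.48 ± 0.21 (SE), adjusted p = 0.0751). The coactivator PPARGC1A, known for mitochondrial biogenesis, was at 3.36, 9.04 and 4.27 CPM in HT7 and 8.85, 10.2 and 9.07 CPM in NT7 (log2FC -0.76 ± 0.31 (SE), adjusted p = 0.0558). Without HT7 replicate 2 its log2FC was -1.29 with an adjusted p of 9.13e-04, and without HT7 replicate 1 it was -0.50 with an adjusted p of 0.210, so 1 library decides whether it passes. PPARA and PPARGC1A both overlapped between groups, and their 95% CIs, -0.93 to -0.03 and -1.42 to -0.10, lay below 0. PPARG, the receptor of adipogenesis and of alveolar macrophages, was at 17.4, 10.7 and 12.7 CPM in HT7 and 14.8, 14.8 and 9.76 CPM in NT7, with a log2FC of 0.05 and a 95% CI of -0.53 to 0.63.

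Within hyperoxia, 10 of the 27 members changed from day 3 to day 7, 6 higher and 4 lower in HT7 (22.2% and 14.8%), against 14.3% and 15.1% of all entries tested. This comparison uses the same HT7 samples as HT7 against NT7. ACADVL (0.50), ACADM (0.76), HADHB (0.40), ETFDH (0.55), LPL (1.46) and PLIN2 (2.24) were higher in HT7, each value being a log2FC of HT7 over HT3. ECI2 (-0.85), ACAA1 (-0.56), CD36 (-2.02) and PPARA (-0.81) were lower. In a fit to HT3 and HT7 alone, only ACADM, PLIN2 and CD36 were called, and the other calls, including that of ECI2, were lost. ACADM, PLIN2, ECI2 and CD36 passed whichever 1 of the 6 samples was left out. ETFDH passed in 4 of those 6 fits, ACADVL and PPARA in 3, HADHB and LPL in 2 and ACAA1 in 1. Without HT7 replicate 1 the log2FC of LPL was 0.86 (adjusted p = 0.0372). PPARA went from 44.8, 75.5 and 49.1 CPM in HT3 to 31.9, 36.4 and 28.6 CPM in HT7, and its adjusted p was 0.00645. Without HT3 replicate 2 its log2FC was -0.54 (adjusted p = 0.0453). The highest HT3 samples of ECI2 (103 CPM) and PPARA were those of replicate 2, the library with muscle transcripts, and without it 5 members were called. The count was also 5 without HT7 replicate 1 and 6 without HT3 replicate 1.

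Within normoxia, none of the members changed from NT3 to NT7 by edgeR or by DESeq2, and 1, PPARG, had an unadjusted p below 0.05. Among all entries tested, 0% changed and 6.29% had an unadjusted p below 0.05. PLIN2 was at 40.4, 46.1 and 46.8 CPM in NT3 and 77.4, 59.5 and 55.0 CPM in NT7, with all NT7 samples higher and a log2FC of 0.53 (95% CI -0.01 to 1.06). CD36 was at 449 ± 28.5 CPM (SD, n = 3) in NT3 and 630.0 ± 207 CPM (SD, n = 3) in NT7, which overlapped.

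The effect of hyperoxia differed between days 7 and 3 for 3 members, 2 with a higher and 1 with a lower effect on day 7 (7.41% and 3.70%, against 2.59% and 4.7% of all entries tested). The log2FC of PLIN2 was higher on day 7 by 1.71 ± 0.35 (SE, adjusted p = 0.00548) and that of ACADM by 0.90 ± 0.20 (adjusted p = 0.00730). That of CD36 was -2.51 ± 0.47 (adjusted p = 0.00342), from 0.49 on day 3 to -2.01 on day 7. With the replicate number as a block, CD36 alone passed. In the 12 fits without 1 sample CD36 passed in 8, PLIN2 in 3 and ACADM in 1. The count was 5 without HT7 replicate 2, and 1 without HT3 replicate 1, HT3 replicate 2, NT3 replicate 1, NT7 replicate 2 or NT7 replicate 3. No member passed without HT7 replicate 1, without HT7 replicate 3, without NT3 replicate 2 or without NT3 replicate 3. The other 7 members that changed on day 7 did not change on day 3, and the difference between days did not pass for any of them. It was 1.43, 1.19 and -0.86 on the log2 scale for LPL, FABP5 and ECI2 (adjusted p = 0.0584, 0.156 and 0.0169). For ACADVL, ETFDH, HADHB and ETFA it was 0.47, 0.61, 0.25 and 0.43 (adjusted p = 0.0561, 0.0250, 0.241 and 0.230).

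Other genes of the same pathways were counted from lists, and of each list the 3 with the largest day 7 change among those that passed without overlap are named, except where a gene is not reported here. Shares of a list are to be read against the 16.7% higher and 16.9% lower of all entries tested. Of 25 further genes of mitochondrial oxidation, acyl-CoA handling and ketone use, 8 were higher and 3 lower in HT7 (32% and 12%), with a median log2FC of -0.06. ACSL4, a synthetase that prefers arachidonate, was at 404, 237 and 388 CPM in HT7 and 156, 118 and 132 CPM in NT7 (log2FC 1.34 ± 0.20 (SE), adjusted p = 1.03e-04). ACACB, which makes the malonyl-CoA that inhibits the carnitine shuttle, was at 22.1, 58.0 and 23.5 CPM in HT7 and 103, 118 and 99.0 CPM in NT7 (log2FC -1.62 ± 0.33 (SE), adjusted p = 0.00109). The ketone body dehydrogenase BDH1 was at 11.1, 12.0 and 10.8 CPM in HT7 and 4.73, 7.25 and 4.75 CPM in NT7 (log2FC 1.02 ± 0.28 (SE), adjusted p = 0.00800).

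Of 15 peroxisomal oxidation genes, 1 was higher and 2 lower (6.67% and 13.3%), with a median log2FC of -0.37. Among them the bifunctional enzyme gene HSD17B4 fell (log2FC -0.62). Of 37 respiratory chain and ATP synthase subunits, 20 were higher (54.1%) and 0 lower by edgeR, with a median log2FC of 0.54. NDUFS1, a subunit of complex I, was at 208, 179.8 and 198 CPM in HT7 and 105, 80.2 and 94.0 CPM in NT7 (log2FC 1.07 ± 0.13 (SE), adjusted p = 2.44e-05). UQCRQ of complex III and ATP5PB of the ATP synthase had log2FC of 1.23 and 1.10, the last kept from several entries of that name.

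Of 22 further genes of lipid uptake, droplets and lipolysis, 1 was higher and 4 lower (4.55% and 18.2%), with a median log2FC of -0.19. G0S2, an inhibitor of the triglyceride lipase ATGL, was at 60.5, 42.3 and 24.4 CPM in HT7 and 164, 108 and 119 CPM in NT7 (log2FC -1.62 ± 0.34 (SE), adjusted p = 0.00142). FITM2, which promotes droplet formation, was at 6.83, 8.19 and 7.72 CPM in HT7 and 12.1, 10.5 and 12.3 CPM in NT7 (log2FC -0.62 ± 0.15 (SE), adjusted p = 0.00363), and SLC27A3, of the fatty acid transport protein family and with a locus shared with other genes, had a log2FC of -0.78. The one gene of the list that rose, ABHD5, which encodes an activator of ATGL, had a log2FC of 0.57 (adjusted p = 0.00392), and FABP3, a fatty acid binding protein with the highest log2FC of the list (1.73), did not pass (adjusted p = 0.0250). ABHD5 and FABP3 were chosen after their values were seen. Of 11 further regulators, 1 was higher and 1 lower (9.09% and 9.09%), both shares below those of all entries. PRKAA2, a catalytic subunit of the energy sensor AMPK, was at 2.55, 6.80 and 6.43 CPM in HT7 and 2.26, 1.83 and 2.13 CPM in NT7 (log2FC 1.34 ± 0.31 (SE), adjusted p = 0.00278), and the nuclear receptor ESRRG was at 0.290, 0.364 and 0.206 CPM in HT7 and 0.892, 1.08 and 1.31 CPM in NT7 (log2FC -1.92 ± 0.50 (SE), adjusted p = 0.00560).

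**Figure D4:**
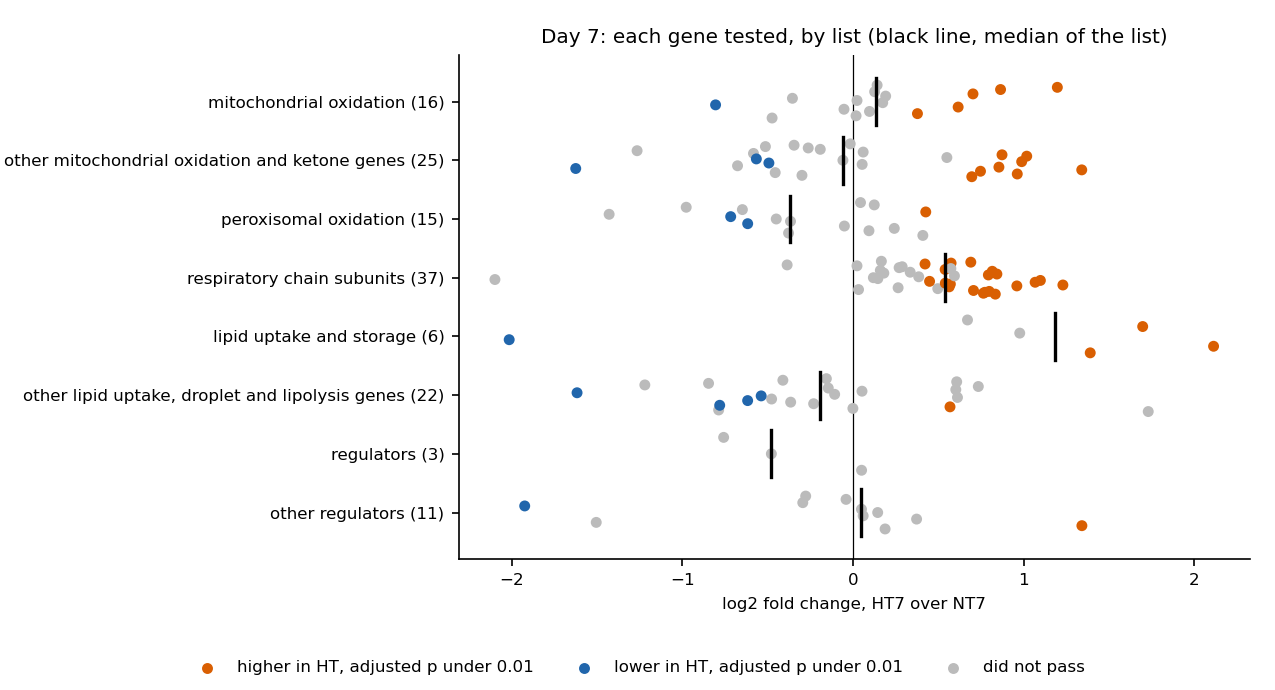
Log2 fold change of HT7 over NT7 (x axis) of each gene tested, by list (y axis, with the number of genes), where orange and blue points passed an adjusted p of 0.01 upwards and downwards, grey points did not, and black lines mark medians. The median of the 37 respiratory chain subunits lies at 0.54, that of the 16 mitochondrial oxidation genes at 0.13 and that of the 15 peroxisomal genes at -0.37.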

How the data were processed

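RNA-seq libraries of 17 lung samples were compared. The authors deposited raw counts per locus, with no normalization. Per the labels' processing notes, reads were checked with FastQC and mapped with STAR 2.7.10a to OryCun2.0, and the counting program is not given in the sources used here. A locus with several annotated genes is listed once for each with the same counts. The 44 entries with no gene name, which held 0.289 to 0.678% of a sample's counts, were removed. No fold changes or p-values of the authors were used.

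The main test was run in R 4.3.3 with edgeR 4.0.16, using filterByExpr, TMM factors (0.957 to 1.05), 1 mean for each of 6 groups over all 17 samples, and the quasi-likelihood F-test with Benjamini-Hochberg adjustment over the 13099 entries tested. CPM use the TMM factors. The log2FC uses a prior count of 0.125, and SE and 95% CI follow from its F statistic. DESeq2 1.42.0 was an alternative. Figures used pandas 2.3.3, numpy 2.4.6 and matplotlib 3.10.9. The members are all names of the list, and from the other lists the 3 largest day 7 changes that passed without overlap were named, apart from genes that are not reported here. The members and lists were chosen with earlier results of these data known. Replicate numbers correlated across HT and NT by 0.167, 0.130 and 0.201 on day 3, 0.265 and 0.141 on day 5, and 0.173, 0.109 and 0.0700 on day 7. The rule for pairs, each correlation above 0.1 over 3 pairs, was met only on day 3. The main test used no pairs on any day, and the replicate number entered as a block only in an alternative fit.

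Counts were simulated for HT7 against NT7 with 200 of 12877 genes changed, a smaller share than was called in the data. Of these, 49 of 100 genes changed by 1 and 94 of 100 changed by 2 on the log2 scale were recovered.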

Additional observations from a re-analysis of the deposited data

Results flagged for a closer look

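The effect of hyperoxia differed between day 7 and day 3 in edgeR's test of the difference for 3 members. The difference on the log2 scale was 0.90 for ACADM, whose locus is shared with RABGGTB, 1.71 for PLIN2 and -2.51 for CD36. ACADM and PLIN2 had a larger log2FC on day 7 than on day 3 (1.20 and 0.30, 2.11 and 0.40), and CD36 had a log2FC of 0.49 on day 3 and -2.01 on day 7.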

How the results depend on the processing

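Over 38 results for single genes and 518 alternatives, 395 kept their side of the threshold, 97 lost it, 26 gained it and 0 changed direction. Counts of changed members moved as follows. On day 3 the count of 0 became 1 by DESeq2 and 1 at an adjusted p below 0.05. The latter was ACSL1, whose adjusted p by edgeR was 0.0718 to 0.189 in the 6 fits without 1 sample. On day 5 the count of 5 became 0 in a fit to HT5 and NT5 alone and 2 with the replicate block (ACADVL and ACADM), and 0 to 5 without 1 sample. On day 7 the count of 10 was 7 in a fit to HT7 and NT7 alone, 9 with 1 entry per locus and 6 to 9 without 1 sample. From HT3 to HT7 the count of 10 became 3 in a fit to those groups alone, and 5 to 10 without 1 sample. For the difference between days 7 and 3 the count of 3 became 1 with the replicate block, 5 at an adjusted p below 0.05, and 0 to 5 without 1 sample. From NT3 to NT7 the count was 0 under each alternative. The replicate block changed no call at an adjusted p below 0.01 on day 3, the only day where the numbers met the rule for pairs. On day 7 the count with the replicate block was also 10, with HADHB lost and CPT1A gained. The same numbers could mark shared batches only as a hint from the data, not from the design. A fit that leaves out 1 HT5 sample assumes that the remaining one varies like the other groups. The cause of these moves was not tested. TMM against RLE factors and the filter on low counts changed no count. In simulated counts 49 of 100 changes of 1 on the log2 scale were recovered, so changes of that size among members can be missed at this depth and number of samples.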
